A study of Mus musculus with 14 samples.

Results

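Cxcl10, Vegfa, Plaur, Ly6k, Nfkbia, Rrad, Rgs1 and Rgs2 are 8 genes of inflammatory, NF-kB, injury and signalling responses, and all 8 had less transcript in old hematopoietic stem cells (oHSCs) after a guide RNA against Clu than after a control guide. They were chosen by name from genes whose values differed in this same contrast, so their values between these groups are given as a description, without a test. They are 8 of the 583 genes listed for the Clu knockout (KO) experiment, and 2 of them, Plaur and Rrad, are also among the 1043 genes listed for a second experiment on age. For 52.5% of the 583 genes, every library with the Clu guide was below every control library. Rgs2 lay near the median change of all 583 genes in the deposited values, and both Nfkbia and Rgs2 did once the libraries were rescaled. Under some of these rescalings the change of Rgs2 turned slightly positive.

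Clu encodes clusterin, a secreted chaperone. In the Clu KO experiment, HSCs of aged donor mice that carry Cas9 in the Rosa26 locus were infected with lentivirus expressing mCherry and guides against Clu (sgClu, 4 libraries) or control guides (sgCtrl, 3 libraries), so that all 7 libraries share Cas9, viral infection, old age and transplantation. Sorted mCherry+ cells went into lethally irradiated CD45.1 recipients, and HSCs were taken back from the bone marrow 4 months later. In the age experiment, HSCs from old (Tx oHSC, 4 libraries) and young (Tx yHSC, 3 libraries) donors were taken back after transplantation in the same way and compared with each other. The labels call the cells hematopoietic stem and progenitor cells and do not say whether replicates came from separate donors or recipients, so that p-values measure only the spread between these libraries. Pooled guides were used per gene and the labels give no editing rate. Clu itself is not among the 583 genes, and the guide labels were therefore not checked against it. Values are taken as FPKM, which divides a gene's fragments by transcript length and by the mapped fragments of the library, although the headers name no unit and TPM cannot be told apart from it.

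The NF-kB transcription factors are held in the cytoplasm by inhibitor proteins. Inflammatory signals and tissue damage lead to the loss of these inhibitors, and the factors then switch on chemokines, adhesion and protease receptors, and the genes of their own inhibitors, which closes a feedback loop. In HSCs, such signals are known to drive exit from quiescence and output of myeloid cells, and growth factors and G protein regulators are among the genes that respond early.

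The start sites of the genes with matches to inflammatory motifs are shown first, because the 8 genes were grouped by response and the sequence lets a reader see which of them carry such letters. RefSeq windows on GRCm38.p6 were matched by symbol for 5 of the 8 genes, Cxcl10, Nfkbia, Plaur, Rgs2 and Vegfa. Each sequence below is the stretch of 250 bases before the start site, 5′ to 3′ on the gene's own strand. Capitals mark matches, on either strand, to the kappa B consensus, to TGANTCA (AP-1) or to the interferon-stimulated response element (ISRE). The positions are chr5:92348890-92349139 on the minus strand for Cxcl10, chr12:55492648-55492897 on the minus strand for Nfkbia, chr7:24462233-24462482 on the plus strand for Plaur and chr17:46032378-46032627 on the minus strand for Vegfa.
Cxcl10: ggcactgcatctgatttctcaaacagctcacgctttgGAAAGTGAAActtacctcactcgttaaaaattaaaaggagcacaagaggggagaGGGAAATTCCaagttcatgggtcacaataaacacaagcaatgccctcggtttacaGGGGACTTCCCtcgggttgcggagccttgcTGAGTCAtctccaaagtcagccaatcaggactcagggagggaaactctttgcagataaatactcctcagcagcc
Nfkbia: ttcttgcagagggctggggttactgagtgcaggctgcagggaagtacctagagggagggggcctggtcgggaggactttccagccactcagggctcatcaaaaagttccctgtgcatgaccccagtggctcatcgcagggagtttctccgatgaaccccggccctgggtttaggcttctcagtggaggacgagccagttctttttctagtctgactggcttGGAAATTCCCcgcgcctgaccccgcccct
Plaur: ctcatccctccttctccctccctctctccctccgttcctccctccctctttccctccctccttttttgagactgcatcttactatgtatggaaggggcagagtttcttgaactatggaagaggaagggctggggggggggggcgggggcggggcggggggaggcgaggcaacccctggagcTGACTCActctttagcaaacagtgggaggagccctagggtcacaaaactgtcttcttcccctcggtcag
Vegfa: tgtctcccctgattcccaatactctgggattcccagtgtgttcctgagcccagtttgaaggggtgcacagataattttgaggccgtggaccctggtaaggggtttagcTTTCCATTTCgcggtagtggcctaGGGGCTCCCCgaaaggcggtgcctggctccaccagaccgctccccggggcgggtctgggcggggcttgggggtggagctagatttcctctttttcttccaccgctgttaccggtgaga

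Cxcl10 held the most kinds of match. Counted back from the start site, it had an ISRE match from -213 to -204, a kappa B match from -159 to -150, overlapping kappa B matches from -104 to -94 and an AP-1 match from -74 to -68. Nfkbia had 1 kappa B match, from -29 to -20. Plaur had an AP-1 match from -69 to -63, and Vegfa had an ISRE match from -142 to -133 and a kappa B match from -118 to -109. Rgs2 had no match to these 3 motifs in its window, nor had a second Vegfa window, at chr17:46025114-46025413 on the minus strand. For comparison, the kappa B consensus matched 8.46% of all 32851 RefSeq windows of 300 bases, 10.3% of the 514 windows of listed genes and 13.1% of the 259 windows of genes called lower in sgClu oHSCs. AP-1 letters were in 7.81%, 8.37% and 10.8% of the same sets, and ISRE letters in 3.44%, 3.89% and 4.25%. These are matches of letters in a short window and were not measured as binding.

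Of the 2 genes of secreted signals, Cxcl10 encodes a chemokine that draws cells bearing the receptor CXCR3 and is induced by interferon and by NF-kB. It lies on chromosome 5 of GRCm38 from 92346638 to 92348889. Cxcl10 measured 21.2, 22.7 and 18.4 FPKM in the sgCtrl libraries and 2.21, 4.65, 5.17 and 5.75 FPKM in the sgClu libraries. Every sgClu library was far below every sgCtrl library, with replicate 1 the lowest. The means were 20.8 ± 2.18 FPKM (SD, n = 3) in sgCtrl and 4.44 ± 1.56 FPKM (SD, n = 4) in sgClu oHSCs, a ratio of 4.67 and a log2 fold change of -2.05 (SE 0.26) on the log2(FPKM + 1) scale, which understates the change of low values. Exons of Art3 on the opposite strand overlap Cxcl10, and the counting is not stated to use strand, so reads of both genes cannot be told apart there.

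Vegfa encodes the main growth factor of blood vessels and is induced by low oxygen and by injury. It lies on chromosome 17 from 46016993 to 46032369. Vegfa measured 10.6, 6.95 and 7.71 FPKM in sgCtrl and 3.07, 2.93, 3.05 and 2.63 FPKM in sgClu oHSCs. The sgClu libraries lay close together, while replicate 1 of sgCtrl stood above the other two. The means of 8.43 ± 1.94 FPKM (SD, n = 3) and 2.92 ± 0.202 FPKM (SD, n = 4) gave a ratio of 2.89 and a log2 fold change of -1.25 (SE 0.16).

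Plaur and Ly6k encode proteins of the Ly6 and uPAR domain family, which are anchored in the outer cell membrane. Plaur is the receptor of urokinase, which turns plasminogen into plasmin at the cell surface, and its level rises in many cells after injury and inflammation. It lies on chromosome 7 from 24462484 to 24475968. Plaur measured 153.4, 112.1 and 110.2 FPKM in sgCtrl and 25.7, 21.3, 39.2 and 23.7 FPKM in sgClu oHSCs. The highest sgClu library, replicate 3, was still below the lowest sgCtrl library by a wide gap. The means were 125.2 ± 24.4 FPKM (SD, n = 3) and 27.5 ± 8.06 FPKM (SD, n = 4), a ratio of 4.56 and a log2 fold change of -2.17 (SE 0.23).

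Ly6k, known best from testis and from tumors, lies on chromosome 15 from 74796874 to 74799986. It measured 11.5, 14.1 and 11.8 FPKM in sgCtrl and 0.931, 1.56, 3.33 and 2.72 FPKM in sgClu oHSCs. Replicates 3 and 4 of sgClu were higher than replicates 1 and 2, and all 4 were below sgCtrl. The means of 12.4 ± 1.41 FPKM (SD, n = 3) and 2.13 ± 1.09 FPKM (SD, n = 4) gave the highest ratio of the 8 genes, 5.83, at a log2 fold change of -2.17 (SE 0.27). Its level is uncertain, because 29.2% of the 50-base words of its longest transcript also occur in transcripts of other genes and the antisense gene Gm17189 overlaps its exons.

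Nfkbia encodes IkB alpha, the inhibitor that keeps NF-kB in the cytoplasm and is itself a rapid NF-kB target. It lies on chromosome 12 from 55489410 to 55492647 and had the highest mean of the 8 genes in both groups. Nfkbia measured 405.2, 259.2 and 284.8 FPKM in sgCtrl and 158.0, 210.2, 203.7 and 186.7 FPKM in sgClu oHSCs. Replicate 1 of sgCtrl was high and the other two were nearer to the sgClu range, though the groups did not overlap. The means were 316.4 ± 77.9 FPKM (SD, n = 3) and 189.7 ± 23.3 FPKM (SD, n = 4), a ratio of 1.67 and a log2 fold change of -0.72 (SE 0.19).

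The last 3 genes encode a small GTPase and regulators of G proteins. Rrad encodes a small GTPase of the RGK family that inhibits voltage-gated calcium channels, and it lies on chromosome 8 from 104628070 to 104631327. Rrad measured 30.4, 22.4 and 24.9 FPKM in sgCtrl and 6.96, 7.77, 7.82 and 5.78 FPKM in sgClu oHSCs. Both groups were tight and far apart, at 25.9 ± 4.09 FPKM (SD, n = 3) and 7.08 ± 0.955 FPKM (SD, n = 4), a ratio of 3.65 and a log2 fold change of -1.73 (SE 0.16). The antisense gene Gm33023 overlaps its exons, with the same limit as for Cxcl10.

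Rgs1 and Rgs2, close together on chromosome 1, encode proteins that speed up GTP hydrolysis by G alpha subunits and so end signals from G protein coupled receptors. Rgs1, which dampens chemokine receptors in blood cells, lies from 144242296 to 144249242 and measured 246.2, 308.8 and 328.5 FPKM in sgCtrl and 112.5, 137.8, 192.1 and 108.2 FPKM in sgClu oHSCs. Rgs2, which acts mainly on Gq and is quickly induced in many cells, lies from 143999338 to 144004161 and measured 285.9, 276.8 and 239.7 FPKM in sgCtrl and 150.7, 184.6, 224.6 and 152.3 FPKM in sgClu oHSCs. For both genes replicate 3 was the highest sgClu library, and for Rgs2 it came close to the lowest sgCtrl library. Rgs1 had means of 294.5 ± 43.0 FPKM (SD, n = 3) and 137.7 ± 38.6 FPKM (SD, n = 4), a ratio of 2.14 and a log2 fold change of -1.12 (SE 0.22). Rgs2 had means of 267.4 ± 24.5 FPKM (SD, n = 3) and 178.1 ± 34.7 FPKM (SD, n = 4), and its ratio of 1.50 and log2 fold change of -0.60 (SE 0.17) were the smallest of the 8.

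**Figure D1:**
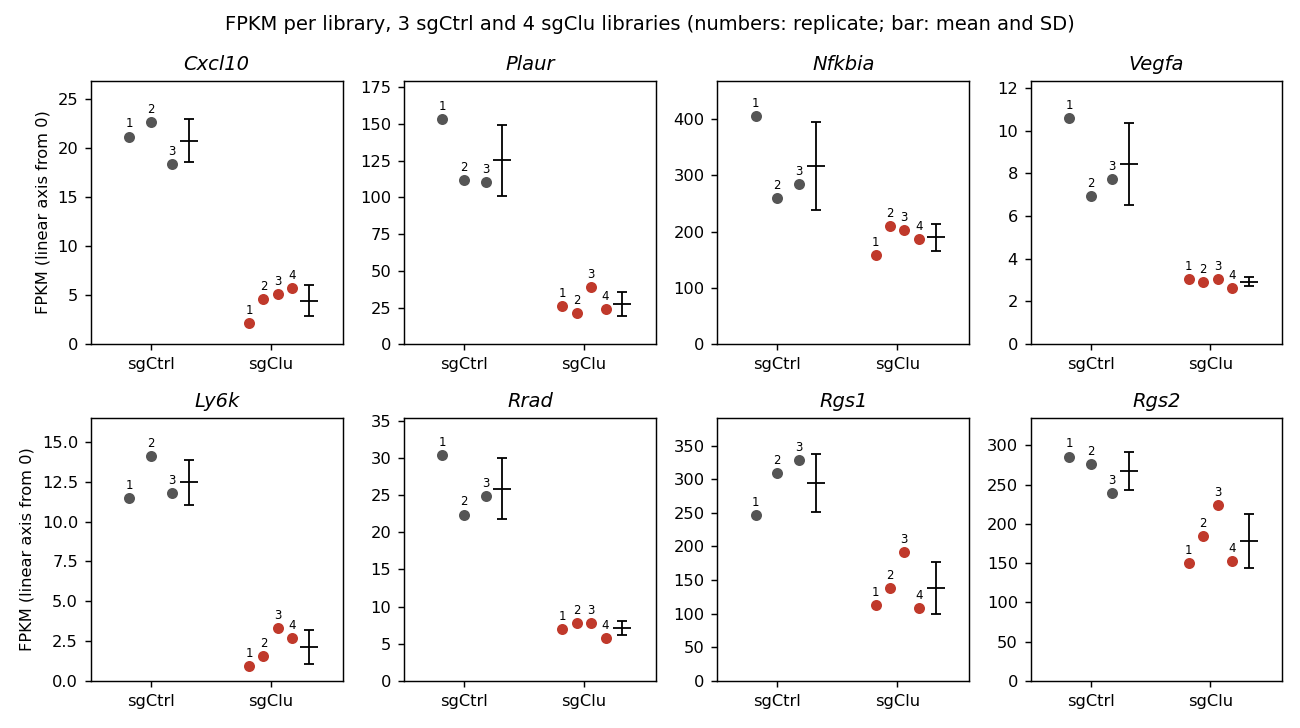
FPKM of each of the 8 genes on a linear axis from 0, in 3 sgCtrl (grey) and 4 sgClu (red) libraries, each point a library with its replicate number, with the mean and SD beside them. No sgClu point reaches the sgCtrl points in any panel, and the gap is widest for Cxcl10, Plaur, Ly6k and Rrad and narrowest for Nfkbia and Rgs2.

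In level, the 8 genes fell into an abundant set and a scarce set. In sgCtrl oHSCs, Nfkbia, Rgs1 and Rgs2 were highest and their libraries overlapped, Plaur followed below them, and Rrad and Cxcl10 came next with overlapping libraries. Ly6k and then Vegfa were lowest, and their libraries did not overlap. In sgClu oHSCs, Nfkbia and Rgs2 overlapped at the top, followed by Rgs1, whose libraries overlapped those of both, and then by Plaur, Rrad and Cxcl10, which did not overlap one another. Vegfa and Ly6k, at means of 2.92 and 2.13 FPKM, overlapped at the bottom, and both overlapped Cxcl10.

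The table from which these genes come was one-sided. Of the 583 listed genes, 292 (50.1%) were lower in sgClu oHSCs at an unadjusted limma p under 0.05 and a log2 fold change beyond 0.5, and 90 (15.4%) were higher. The groups did not overlap for 306 genes (52.5%) with sgClu below sgCtrl and for 83 (14.2%) with sgClu above. All 8 genes were lower past these limits and separated in this way, which is read as no result since the same contrast chose them. The median log2 fold change was -1.49 over the 8 genes and -0.52 over all 583. Ordered from the most negative log2 fold change, Plaur was at rank 2, Ly6k at 3, Cxcl10 at 5, Rrad at 9, Vegfa at 30, Rgs1 at 46, Nfkbia at 156 and Rgs2 at 238 of 583. Rgs2 thus lay nearer to the middle of the listed genes than the others did, with Nfkbia next.

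The scale of the values matters for the latter pair. Sums of the listed values were 10841 to 12502 FPKM per sgClu library and 17005 to 18573 FPKM per sgCtrl library. These sums cover selected genes only and say nothing of sequencing depth, which is unknown. Scaling by the median of ratios, taken over the listed genes, moved the median of all genes from -0.52 to -0.09, and TMM and column-total scaling moved it to -0.07 and -0.12. With these scalings the split of calls was 59 lower and 130 higher, 56 and 130, and 70 and 129. Relative to these medians, Plaur was at -1.65 in the deposited values and between -1.48 and -1.46 after the 3 scalings, and Ly6k, Cxcl10, Rrad, Vegfa and Rgs1 also stayed below the median in all 4. Nfkbia was at -0.19 in the deposited values and between -0.01 and 0.01 after scaling. Rgs2 was at -0.08 and between 0.10 and 0.12. Its log2 fold change itself turned to 0.03 after median-of-ratios and 0.06 after TMM scaling, while that of Nfkbia stayed negative, at -0.09, -0.06 and, after column-total scaling, -0.13. Of the 8 genes, 5 were past the limits after median-of-ratios and TMM scaling, where Rgs1, at -0.49 and -0.46, fell short together with Nfkbia and Rgs2, and 6 after column-total scaling, where Rgs1 was at -0.53. With deposited values, all 8 were past the limits when any 1 of the 7 libraries was left out, which again is read as no result.

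**Figure D2:**
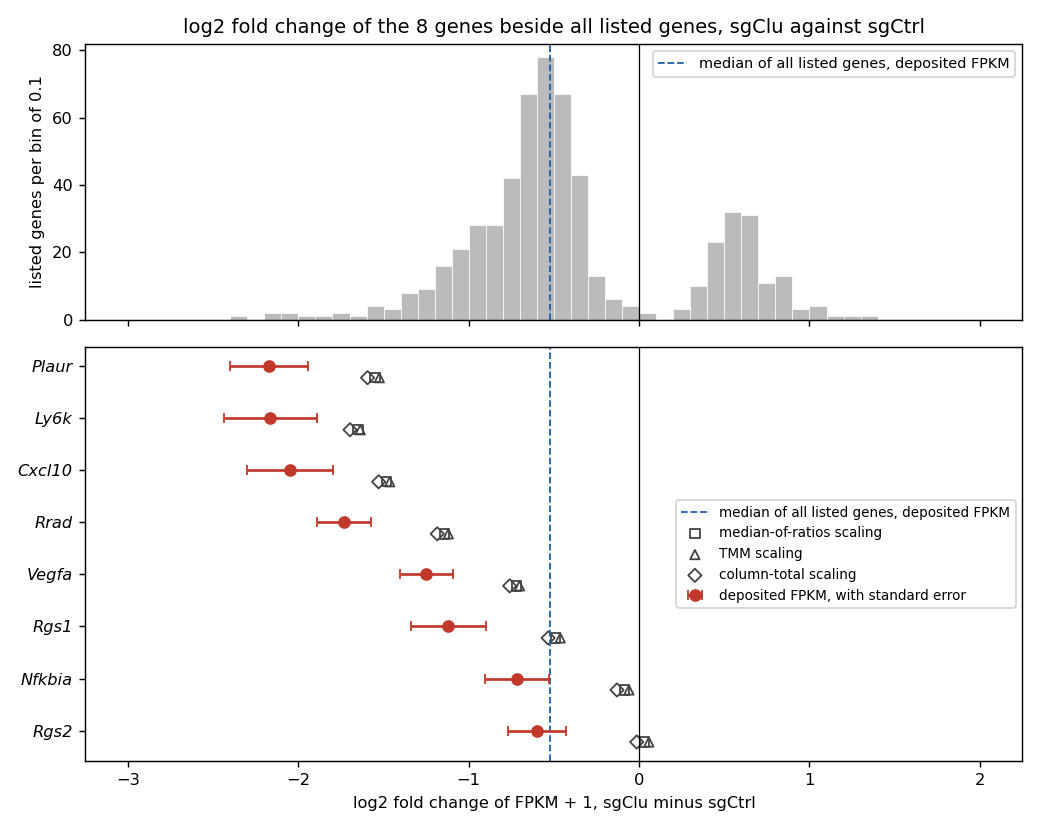
Top, number of listed genes by log2 fold change of FPKM + 1 (sgClu minus sgCtrl), in bins of 0.1, for all 583 genes. Bottom, the 8 genes on the same axis, with red points and standard errors for deposited values and open symbols for the 3 scalings; the dashed line is the median of all genes, -0.52, and after scaling Nfkbia and Rgs2 sit close to 0 while Plaur, Ly6k and Cxcl10 stay below -1.4.

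Beyond the groups, the 8 genes were compared by how each library departed from its own group mean on the log2(FPKM + 1) scale, over 7 libraries. This is a description, as all points share their libraries and their scale. Of the 28 pairs of genes, 22 had a positive correlation of deviations, with a median of 0.45 and a range from -0.27 to 0.86. Over all pairs of listed genes the median was 0.035 and 52.6% were positive. The highest values were those of Cxcl10 with Ly6k (0.86), Vegfa with Rrad (0.85), Nfkbia with Vegfa (0.77), Nfkbia with Rrad (0.75) and Rgs1 with Rgs2 (0.70). Vegfa with Ly6k was the lowest. Nfkbia, Vegfa and Rrad, which were high in sgCtrl replicate 1, thus went together. So did Cxcl10 and Ly6k, which were highest in sgCtrl replicate 2 and lowest in sgClu replicate 1. Plaur and Rgs2, also highest of sgCtrl in replicate 1, correlated positively with every gene of both sets and belonged to neither alone. Rgs1, highest in sgCtrl replicate 3, was at 0.52 with Ly6k and at -0.22 with Vegfa. Single libraries bear on this: sgCtrl replicate 1 was the highest of its group for 5 of the 8 genes and for 44.9% of all listed genes, and sgClu replicate 3 was the highest of its group for 5 of the 8 and for 28.8% of all. Their part in the correlations was not tested.

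**Figure D3:**
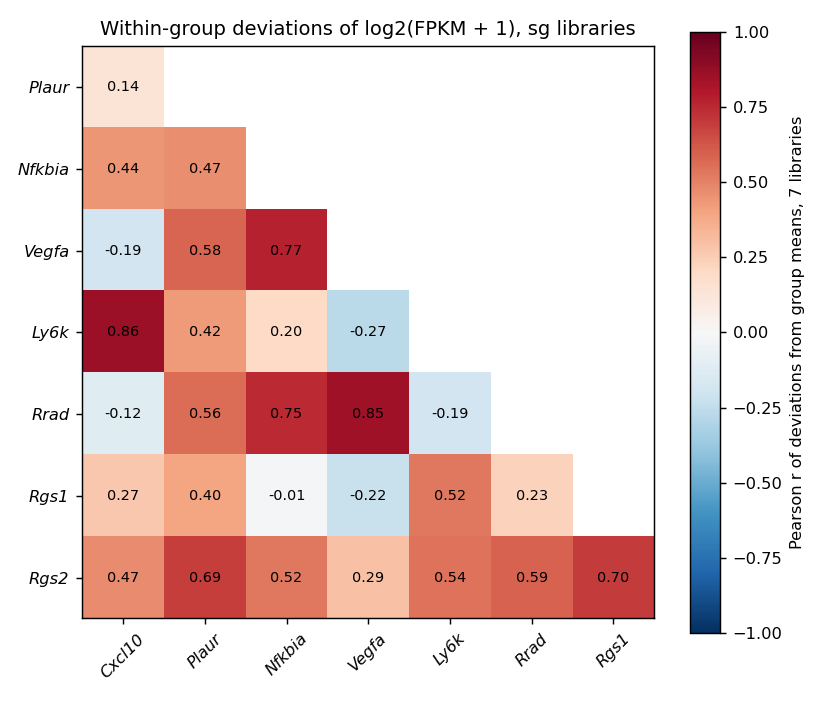
Pearson correlation, over 7 libraries, of deviations from the group mean of log2(FPKM + 1) for each pair of the 8 genes, from blue (-1) to red (1). The warmest cells join Cxcl10 with Ly6k and Vegfa with Rrad, and the coolest joins Vegfa with Ly6k at -0.27.

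The genes whose profiles were most like those of the 8 were sought among 178 other listed genes that reached a mean of 10 FPKM in either group, by the root mean square difference of centred log2(FPKM + 1) values over the 7 libraries. Dennd4a, which encodes an exchange factor for the GTPase Rab10, was nearest to Plaur (0.37), Cxcl10 (0.42), Ly6k (0.43) and Rrad (0.24). Next were Fosl2, an AP-1 subunit, for Plaur (0.45) and Ly6k (0.54), and Id3, an inhibitor of helix-loop-helix factors, for Cxcl10 (0.42). The nuclear receptor Nr4a1 was the next for Rrad (0.27) and for Vegfa (0.15), after the cell cycle inhibitor Cdkn1a (0.14). The closest profile overall was that of Nfkbia with Zfp36, which encodes a protein that promotes decay of cytokine transcripts (0.08), and its next was the cyclin gene Ccnl1 (0.11). Rgs2 was nearest to Ier3 (0.10) and Pde4b (0.11), and Rgs1 to Ctla2a (0.14) and Ctla2b (0.16), genes of cysteine protease inhibitors that are close copies of each other and whose values are therefore uncertain.

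Other genes of the same responses were taken from lists written from general knowledge. Most listed genes differ between these groups, by a selection that is not given in the sources used here. Counts and p-values below, adjusted ones included, are therefore not independent evidence of a difference or of its direction. Of 38 genes of NF-kB signalling and feedback, 8 are listed, and the 7 besides Nfkbia were all lower in sgClu oHSCs past the limits, also at a limma adjusted p of 0.05, against 50.1% of all listed genes. Tnfaip3, which encodes the A20 enzyme that shuts off NF-kB signalling, fell from 16.3 ± 5.21 (SD, n = 3) to 5.64 ± 1.04 FPKM (SD, n = 4), or -1.34 in log2 fold change with SE 0.24 and an adjusted limma p of 0.00474. Nfkbid, an atypical IkB protein, fell from 35.9 ± 10.2 (SD, n = 3) to 16.7 ± 2.17 FPKM (SD, n = 4), or -1.03 in log2 fold change with SE 0.20 and an adjusted limma p of 0.00617.

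The remaining 5 were the adaptor Traf1 (-0.97, SE 0.25), the IkB family genes Nfkbiz (-0.73, SE 0.19) and Nfkbie (-0.69, SE 0.25), the NF-kB subunit Rel (-0.63, SE 0.14) and the A20 partner Tnip1 (-0.55, SE 0.18), all in log2 fold change. Nfkbie and Tnip1, like Tnfaip3, encode inhibitors of the pathway. The groups overlapped for Nfkbie and Tnip1. Their median of -0.73 stood beside -0.52 for all genes. Between 5 and 7 of the 7 stayed past the limits when 1 library was left out, Nfkbie losing its call without sgClu replicate 2 or 3 or sgCtrl replicate 1 or 3, and Tnip1 without sgClu replicate 2 or sgCtrl replicate 1 or 2. Only Tnfaip3 stayed past the limits after median-of-ratios (-0.77) and TMM scaling (-0.75), joined by Traf1 (-0.59) after column-total scaling, and Tnip1 was at 0.00 after TMM scaling.

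Of 54 inflammatory cytokine, chemokine and receptor genes, 11 are listed. Of the 10 besides Cxcl10, 8 were lower and 1 was higher past the limits, beside 50.1% and 15.4% of all listed genes. The chemokine Ccl4, the most abundant, fell from 464.7 ± 39.2 (SD, n = 3) to 259.7 ± 55.9 FPKM (SD, n = 4), or -0.86 in log2 fold change with SE 0.19 and an adjusted limma p of 0.00886. The neutrophil chemokine Cxcl2 fell from 36.6 ± 6.90 (SD, n = 3) to 17.1 ± 3.97 FPKM (SD, n = 4), or -1.06 in log2 fold change with SE 0.21 and an adjusted limma p of 0.00621. The decoy receptor gene Il1r2 (-1.26), the cytokine genes Il10 (-1.06), Il1b (-0.94) and Osm (-0.82), the prostaglandin synthase gene Ptgs2 (-0.68) and the chemokine Ccl5 (-1.49) were also lower.

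Il1b, Il10, Il1r2 and Ptgs2 all had means under 5 FPKM. Ccl5 overlapped between the groups and lost its call without sgCtrl replicate 3 (-1.18). Il12a, a subunit of interleukin 12, went the other way, from 37.0 ± 14.1 (SD, n = 3) to 54.4 ± 4.28 FPKM (SD, n = 4), or 0.60 in log2 fold change with SE 0.23 and an adjusted limma p of 0.0417 with overlapping groups. Its call was lost without sgClu replicate 1 or 3 or sgCtrl replicate 1 (0.39) or 3. Lif had -0.38 (SE 0.17) and was not past the limits. After the 3 scalings, 2, 2 and 3 of the 8 lower genes were still past the limits, 9 of the 10 genes stayed negative each time, and Il12a stayed higher.

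Among genes tied to the other roles, few are listed. Their calls stand beside the 50.1% of all listed genes that were lower past the limits, and their changes beside the median of -0.52. Of 31 interferon response genes, the 2 besides Cxcl10 were both lower, the transcription factor gene Irf1 (-0.67, SE 0.16) and the antiviral gene Rsad2 (-0.80, SE 0.20), and of 26 genes of plasminogen activation and uPAR partners, the thrombin receptor gene F2r (-0.56, SE 0.17) and the tissue factor gene F3 (-0.76, SE 0.23) were lower while the integrin gene Itgav (-0.72, SE 0.36) was not past the limits. F2r lost its call without sgClu replicate 1 (-0.45). Itgav passed the limits without sgClu replicate 4 (-0.89) or sgCtrl replicate 2 (-1.06). Arnt, the partner of hypoxia-inducible factors, was the only other listed gene of 31 for VEGF and hypoxia and fell from 4.95 ± 0.368 (SD, n = 3) to 2.07 ± 0.387 FPKM (SD, n = 4), at -0.97 (SE 0.14). Of 30 Ly6 and uPAR domain genes, Ly6c2 was the only one besides Plaur and Ly6k and had -1.06 (SE 0.20). Of 21 RGS genes only Rgs1 and Rgs2 are listed, and of 8 genes of RGK GTPases and calcium channel beta subunits only Rrad. After median-of-ratios and TMM scaling 0 of the genes of this paragraph other than the 8 were past the limits in limma. After column-total scaling Arnt alone was, at -0.52. All of them stayed negative after median-of-ratios scaling, and F2r turned to 0.003 after TMM scaling.

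**Figure D4:**
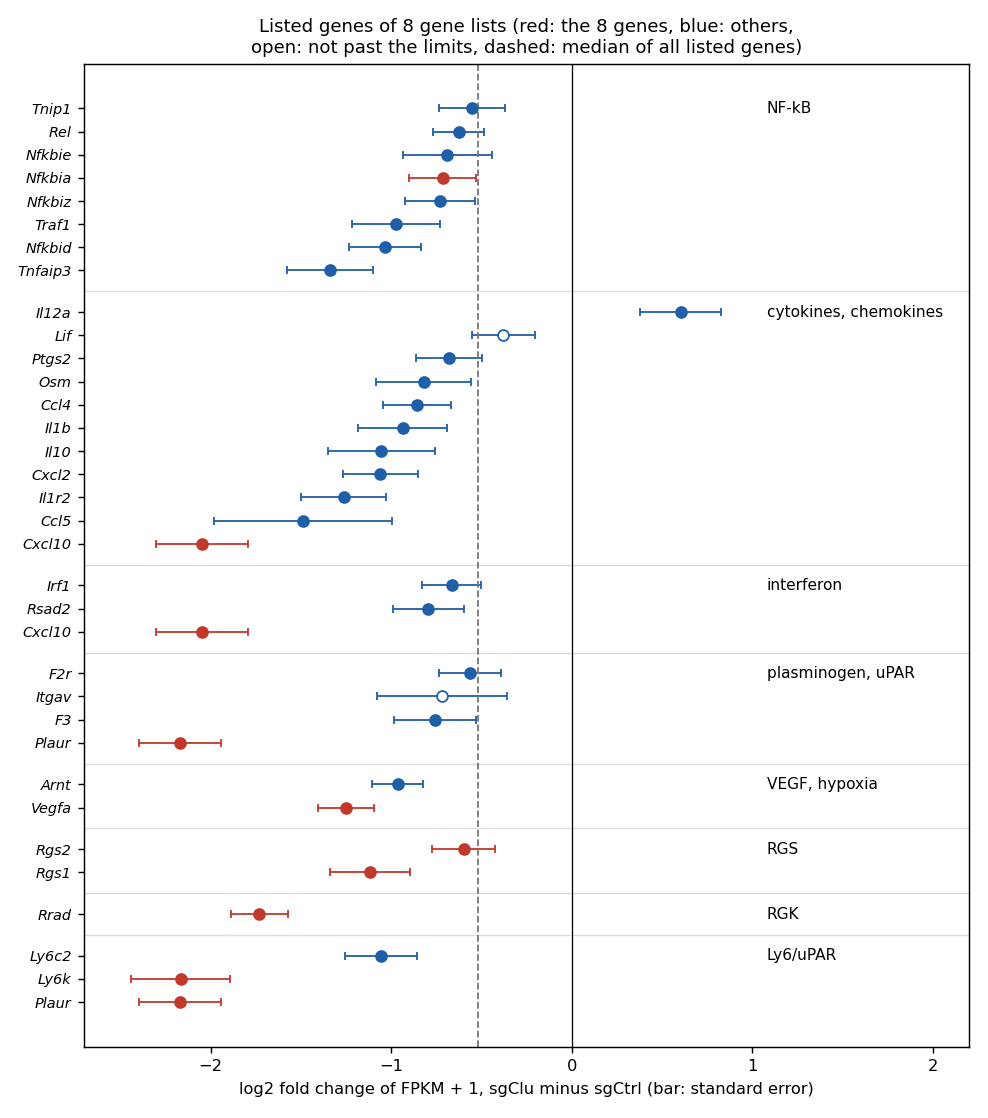
log2 fold change of FPKM + 1 (sgClu minus sgCtrl) with its standard error for every listed gene of 8 gene lists, with the 8 genes in red, other genes in blue and genes not past the limits open. The dashed line marks -0.52, the median of all listed genes, and all genes except Il12a lie left of 0.

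Markers of other cell states moved with these groups. Of 39 early response and dissociation stress genes, which cells switch on within minutes of handling or stimulation, 25 are listed and all 25 were lower in sgClu oHSCs past the limits, 24 of them without overlap, with a median log2 fold change of -0.95. Among all listed genes, 50.1% were lower past the limits and 52.5% were lower without overlap. After the 3 scalings 8, 8 and 10 of the 25 were past the limits and 24, 21 and 24 stayed negative. Their values summed to between 1071.5 and 1477.0 FPKM in sgClu and between 1954.5 and 2756.1 FPKM in sgCtrl libraries. Of 18 monocyte and macrophage markers, 3 are listed, with sums of 110.0 to 179.7 FPKM in sgClu and 245.0 to 337.3 FPKM in sgCtrl. Ly6c2 makes up most of this, Cd14 (-1.60, SE 0.50) was lower with overlapping groups, and C1qb, listed at 0 in all 3 sgCtrl libraries and in 1 of the sgClu libraries, went the other way, with a mean of 0.941 ± 0.93 FPKM (SD, n = 4) in sgClu and a call as higher at an adjusted limma p of 0.0619. The 2 listed neutrophil markers of 15, S100a8 and S100a9, summed to 8.42 to 51.8 FPKM in sgClu and 16.1 to 176.8 FPKM in sgCtrl. The mast cell genes Mcpt4 and Tpsb2, 2 of 11, were listed at 0 in all 4 sgClu libraries and summed to 0.0 to 42.5 FPKM in sgCtrl. There, 1 library was at 0 for both genes, so that the groups overlapped. The sgCtrl means were 12.4 ± 19.3 FPKM for Tpsb2 and 2.7 ± 4.4 FPKM for Mcpt4 (SD, n = 3). Of 15 HSC markers only Procr (-0.76, SE 0.32) and Fgd5 (-0.63, SE 0.31) are listed, so that the labelled cell type could be checked only in part. None of the genes taken as markers of erythroid, megakaryocyte, B, T and NK, and endothelial cells is listed. Outside these markers, and named after their values were seen, the T cell costimulatory and inhibitory receptor genes Cd28 (-1.20, SE 0.14) and Ctla4 (-0.95, SE 0.21) were lower, and both stayed past the limits after the 3 scalings, at -0.80, -0.79 and -0.84 for Cd28 and -0.69, -0.69 and -0.72 for Ctla4. The part of any of these in the values of the 8 genes was not tested, and in bulk libraries fewer cells of a type and less RNA per cell cannot be told apart.

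The age experiment used other libraries and another contrast than the choice of the genes, and it lists Plaur and Rrad. The paper reports as many genes upregulated in transplanted old HSCs as the age table lists. Listing may therefore have required a higher value in old cells in these same libraries. The direction and p-values of Plaur and Rrad for age are thus no independent check, and they are given as a description. Plaur measured 175.9, 182.0, 131.3 and 106.9 FPKM in Tx oHSCs and 91.7, 69.1 and 41.1 FPKM in Tx yHSCs. All old libraries were above all young ones, though the lowest old library was near the highest young one. The means of 149.0 ± 36.0 FPKM (SD, n = 4) and 67.3 ± 25.4 FPKM (SD, n = 3) gave a ratio of 2.21, or 1.18 in log2 fold change with SE 0.31 and an adjusted limma p of 0.0207. Rrad measured 21.7, 28.0, 21.5 and 21.5 FPKM in Tx oHSCs and 9.16, 7.27 and 15.5 FPKM in Tx yHSCs. Its old libraries were nearly equal apart from replicate 2, and its groups did not overlap. The means of 23.2 ± 3.22 FPKM (SD, n = 4) and 10.6 ± 4.29 FPKM (SD, n = 3) gave a ratio of 2.18, or 1.11 in log2 fold change with SE 0.27 and an adjusted limma p of 0.0157.

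Permuting the libraries between the groups (exact test of the difference in means, two-sided) gave p = 0.0571 for each gene, the smallest value that 35 splits allow, so that it could not pass 0.05. It shuffles all 7 libraries and leaves out the pairing of their numbers. These calls stand on a table in which 652 of 1043 genes (62.5%) were higher past the limits, 10 (0.959%) were lower, 518 (49.7%) had all old above all young libraries and 17 (1.63%) the reverse. The median log2 fold change of all 1043 genes was 0.70. After median-of-ratios, TMM and column-total scaling over the listed genes, Plaur was at 0.36, 0.34 and 0.51 and Rrad at 0.33, 0.31 and 0.48, and neither was past the limits, while the table split into 124 higher and 54 lower genes, 123 and 57, and 151 and 40. Leaving out each library in turn kept both past the limits, Plaur between 0.86 and 1.43 and Rrad between 0.89 and 1.39. So both genes were higher in old than in young and lower in sgClu than in sgCtrl oHSCs in deposited values, each within its own table, and levels are not compared across the tables because they were made separately. This pair of directions was common, as 26 (49.1%) of the 53 genes listed in both tables were called lower in sgClu and higher in old cells.

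**Figure D5:**
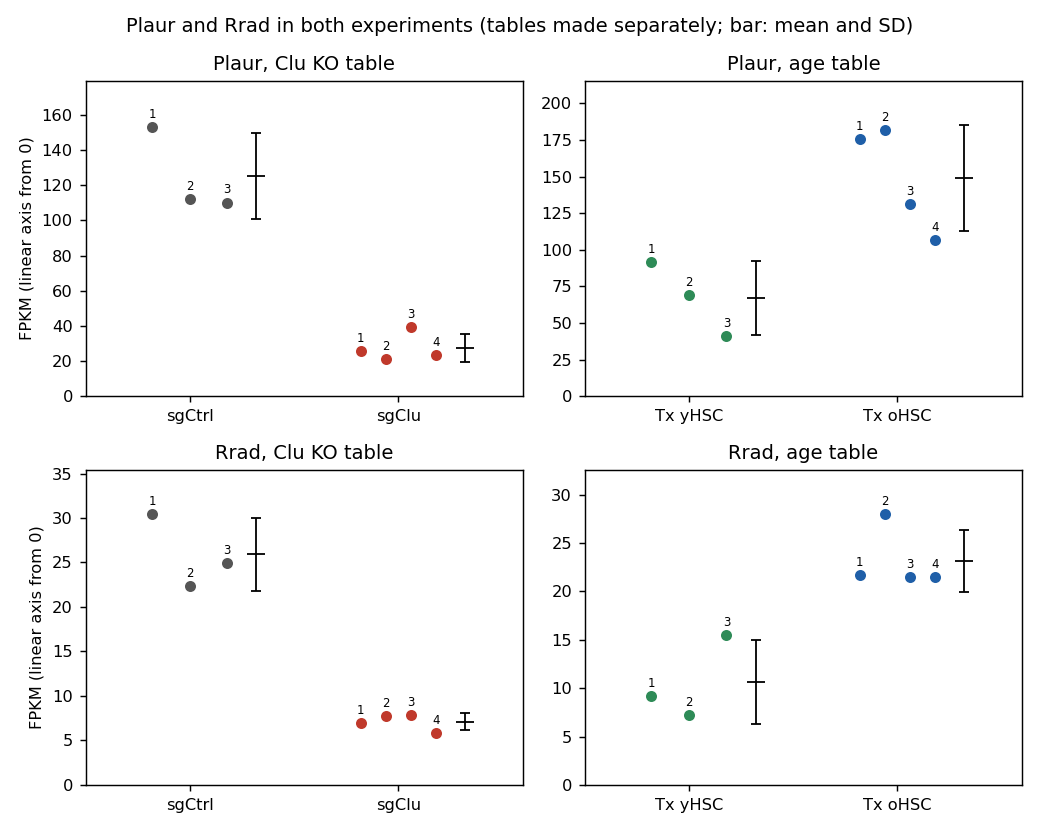
FPKM of Plaur (top) and Rrad (bottom) on linear axes from 0 in the Clu KO table (left, 3 sgCtrl and 4 sgClu libraries) and the age table (right, 3 Tx yHSC and 4 Tx oHSC libraries), each point a library with its replicate number, with mean and SD. In all 4 panels the points of the 2 groups do not overlap.

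Some other genes of these lists are listed for age too, and their counts stand beside the 62.5% of all listed genes that were higher. Of the 38 NF-kB genes 4 are listed, and the inhibitor Tnip3 (0.69, SE 0.25) and the adaptor Myd88 (0.75, SE 0.33) were higher in old cells past the limits, while Nfkbib (0.77, SE 0.43) and Bcl3 (0.65, SE 0.30) were not. Of the cytokine list, Il27 (1.03, SE 0.34) and the adhesion gene Icam1 (0.68, SE 0.28) were higher, while Ccr1 (0.39, SE 0.32) was not past the limits, nor was Il6, at 5.53 ± 4.12 FPKM (SD, n = 4) in old and 1.53 ± 0.395 FPKM (SD, n = 3) in young cells. Without Tx oHSC replicate 3, which had 0.249 FPKM, the log2 fold change of Il6 was 1.67 and past the limits. Bcl3 (0.77 without Tx oHSC replicate 1 or 3, 0.80 without Tx yHSC replicate 2) and, without Tx yHSC replicate 1, Nfkbib (1.10) and Oas1a (0.91) passed them too. Of 6 listed interferon genes 4 were higher, a share close to that of all listed genes, Socs1 (0.90, SE 0.26), Usp18 (0.74, SE 0.26), Gbp2 (0.71, SE 0.30) and Irf7 (0.56, SE 0.21), and Oas1a (0.66, SE 0.32) and Iigp1 (0.44, SE 0.25) were not past the limits. Serpine2, an inhibitor of urokinase and thrombin, rose from 5.63 ± 2.49 (SD, n = 3) to 13.8 ± 7.72 FPKM (SD, n = 4), or 1.10 in log2 fold change with SE 0.37 and an adjusted limma p of 0.0427, with overlapping groups. Gem, the RGK relative of Rrad, rose from 26.8 ± 3.98 (SD, n = 3) to 44.6 ± 11.3 FPKM (SD, n = 4), or 0.69 in log2 fold change with SE 0.24 and an adjusted limma p of 0.0468. Cd59b (1.02, SE 0.33), a Ly6 domain inhibitor of complement, and Angptl4 (0.86, SE 0.33), a hypoxia target, were also higher. In limma, 0 genes of these lists were lower at the unadjusted limits, beside 0.959% of all 1043 listed genes. Few could be lower if listing required a higher value in old cells, which limits these calls and p-values as for Plaur and Rrad. After median-of-ratios and TMM scaling, 0 genes of these lists were past the limits for age in limma, and after column-total scaling 1 was, the interferon gene Socs1. Gem, Tnip3, Icam1 and Myd88 turned negative after median-of-ratios and TMM scaling, and Gbp2 after TMM scaling. Without Tx yHSC replicate 2, Gem (0.63), Tnip3 (0.56), Usp18 (0.60), Cd59b (0.69), Angptl4 (0.86) and Irf7 (0.56) lost their calls. Il27 lost its call without Tx yHSC replicate 3 (0.71), Irf7 also without Tx oHSC replicate 2 (0.49) or Tx yHSC replicate 1 (0.47), and Angptl4 also without Tx oHSC replicate 2 (0.61) or 3 (0.77) or Tx yHSC replicate 3 (0.79). Angptl4, Irf7, Myd88, Icam1 and Gbp2 had adjusted limma p-values of 0.0582, 0.0556, 0.0745, 0.0635 and 0.0698, and the last 3 each lost their calls without several single libraries.

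Markers also differed with age, with the same limit from how genes may have been listed. Their rises stand beside the 62.5% of all 1043 listed genes that were higher. Sums over all listed genes were 71628 to 84123 FPKM per Tx oHSC and 42199 to 54607 FPKM per Tx yHSC library. After median-of-ratios scaling, median log2 fold changes were 0.213 for neutrophil, 0.175 for erythroid and 0.296 for megakaryocyte markers. They were 0.263 for monocyte and 1.158 for mast cell markers. Neutrophil and granulocyte progenitor markers (5 of 15 listed) summed to between 7602.8 and 10843.4 FPKM in Tx oHSCs and between 3931.0 and 4844.8 FPKM in Tx yHSCs, monocyte and macrophage markers (4 of 18) to 371.7 to 612.8 and 192.2 to 346.1 FPKM, and mast cell and basophil markers (8 of 11) to 497.2 to 796.0 and 233.2 to 369.5 FPKM. Cma1, Mcpt4, Tpsb2 and Tpsab1 of the latter were listed at 0 in all 3 Tx yHSC libraries. Erythroid markers (7 of 13) and megakaryocyte markers (4 of 9) were also higher in sum in old cells, at 1547.8 to 2439.2 against 820.8 to 1135.2 FPKM and 268.7 to 497.8 against 175.0 to 240.9 FPKM. Of the HSC markers, Procr (0.90, SE 0.30) and Slamf1 (0.75, SE 0.31) were higher and Vwf (0.57, SE 0.29) was not past the limits. Slamf1 fell short with the replicate numbers as a block (0.68). Igll1 (1.05, SE 0.31), the one listed gene of the B cell markers used, and Klrb1c (1.20, SE 0.33), that of the T and NK cell markers, were higher. The immunoglobulin genes Ighv1-53 (3.25, SE 1.59) and Igkv1-110 (3.11, SE 2.60), named after their values were seen, were not past the limits. Of early response genes Hspa1b (0.54, SE 0.24, and 0.51 and short of the limits with the block) was higher and Ccn1 (0.82, SE 0.49) was not past the limits. After median-of-ratios scaling, 5 of the 8 mast cell genes, 2 of the 4 monocyte genes and 0 of the 5 neutrophil genes were higher past the limits, and after TMM and column-total scaling the counts were the same. Of the 7 erythroid genes, 1, 1 and 2 were past them after the 3 scalings. Of the 4 megakaryocyte and 3 HSC markers 0 were each time, while Igll1 and Klrb1c always were. Of all 1043 listed genes, 124, 123 and 151 were higher past the limits after the same scalings. The part of these markers in the values of Plaur and Rrad was not tested.

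Last, the 8 genes were compact. Their median span in the GENCODE M21 annotation of GRCm38 was 4041 bases, from 2252 bases for Cxcl10 to 15377 bases for Vegfa, against 18741 bases for the 572 listed genes that could be matched by symbol and 15209 bases for the 287 matched genes that were lower. The median longest transcript was 2119.5 bases, against 3374.5 and 3189 bases. FPKM divides by transcript length, and no test of this difference was made because the genes were chosen by name.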

How the data were processed

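RNA-seq values of 14 libraries in 2 experiments were used. Per the labels, cDNA was made with a SMART-Seq kit and libraries with Nextera XT. The authors trimmed reads, aligned them to mm10 with Hisat2 and counted them with FeatureCounts. The annotation and the step from counts to the deposited FPKM values are not given in the sources used here. The deposited tables list 583 and 1043 genes, of which 2 and 0 are at 0 in all libraries. How the genes of the Clu KO table were chosen is not given in the sources used here. The age table lists as many genes as the paper reports to be upregulated in transplanted old HSCs. It may thus hold only genes chosen as higher in old cells. Such a choice would by itself give many higher calls, few lower calls and a positive median for age. In both tables, 0 value columns were left unused.

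Each table was tested on its own with limma (version 3.58.1, R 4.3.3) on log2(FPKM + 1), two-sided, with calls at an unadjusted p under 0.05 and an absolute log2 fold change over 0.5. Benjamini-Hochberg adjustment ran over all genes of a table. The tables hold only part of the genes, so adjusted p-values hold within a table and not over all expressed genes. The test was checked on simulated data. The exact permutation test used SciPy (version 1.17.1). Counts were not used here, so depth is unknown and no counting interval is given.

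Same-numbered Tx oHSC and Tx yHSC libraries deviated together (correlation across genes 0.405, 0.163 and 0.161), and their numbers, from the labels, were read as pairs in an alternative fit with a replicate block. Also tried were scaling by median of ratios, TMM or column totals, a pseudocount of 0.1, removal of genes under 1 FPKM in both group means, a mean-variance trend, adjusted p-values, a higher fold limit (log2 of 1) and leaving out single libraries.

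The 8 genes and the gene lists were chosen with earlier results of these data known. Named genes are the 8, listed genes of the lists that were called or come from lists with 5 or fewer in a table, and the 2 genes nearest in profile to each of the 8. A few others (genes of larger lists that were not called, and Cd28, Ctla4, Ighv1-53 and Igkv1-110) were named after their values were seen. Gene positions come from GENCODE M21, promoter windows from RefSeq on GRCm38.p6. It need not be the authors' annotation. Protein sequences were not used here.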

Additional observations from a re-analysis of the deposited data

Results flagged for a closer look

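Of 63 groups of 4 libraries examined, 7 held 1 library whose distance to the nearest other exceeded Dixon's critical share of the group's range, where chance flags about 1 in 20. Rrad was the only one of the 8 genes among them, with 1 Tx oHSC library at 28.0 FPKM beside 21.5, 21.5 and 21.7 FPKM, and without that library (replicate 2) its log2 fold change was 1.02 and still past the limits. In sgClu oHSCs, Ctla2a had 1 library high at 2533.4 FPKM beside 1617.3 to 1745.4 FPKM, and Nfkbiz and Rsad2 had 1 library low, at 6.77 FPKM beside 9.09 to 9.25 FPKM and at 0.695 FPKM beside 1.38 to 1.48 FPKM. In Tx oHSCs, 1 library was high for Gbp2 at 12.6 FPKM beside 6.75 to 7.49 FPKM, for Serpine2 at 25.2 FPKM beside 8.45 to 11.1 FPKM and for Socs1 at 3.08 FPKM beside 1.65 to 1.82 FPKM.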

How the results depend on the processing

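Scaling over the listed genes moved most results. After median-of-ratios, TMM and column-total scaling, the genes lower in sgClu oHSCs went from 292 to 59, 56 and 70, the 7 further NF-kB genes to 1, 1 and 2, the genes higher in Tx oHSCs from 652 to 124, 123 and 151 and those lower from 10 to 54, 57 and 40. Where most genes move one way, such scaling takes out some of that shift by its construction. Plaur in Tx oHSCs went from 1.18 to 0.36, 0.34 and 0.51 and Rrad from 1.11 to 0.33, 0.31 and 0.48, all short of the limits. A log2 fold change limit of 1 left 69 lower and 7 higher genes and 2 NF-kB genes for sgClu, and 197 higher and 2 lower for age. Adjusted p-values left 389 higher for age.

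With 1 library left out, the counts ranged from 241 to 295 lower and 69 to 98 higher for sgClu, 5 to 7 for the NF-kB genes, and 405 to 655 higher and 8 to 13 lower for age, with 405 without Tx yHSC replicate 3. The log2 fold changes for age ranged from 0.86 to 1.43 for Plaur and from 0.89 to 1.39 for Rrad.

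With the replicate block, 752 genes were higher and 12 lower for age, Plaur was at 1.32 and Rrad at 1.14, Gbp2 (0.75) and Icam1 (0.65) lost and Oas1a (0.76) gained a call, and no other call changed for age among the genes of the response lists. Among marker and early response genes, Slamf1, Hspa1b, Ermap and Pf4 lost and Mmp8 gained a call. In the sgClu contrast, same-numbered libraries share only a number (correlations -0.103, 0.0731 and 0.0578, with 1 of 3 sgCtrl libraries correlating best with its own number). The block there gave 270 lower and 65 higher genes and left the NF-kB count at 7 and 7 of the 8 genes past the limits, while Ccl5 (-1.37), Osm (-0.68), Il12a (0.61), Zfp36 (-0.63) and Ier3 (-0.52), and of the marker and other early response genes Atf3, Ier2, C1qb, Procr and Tpsb2, were not past the limits, and Itgav (-0.89) and S100a8 were.

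Signs turned only under scaling. In sgClu against sgCtrl, median-of-ratios and TMM scaling gave 0.03 and 0.057 for Rgs2, 0.005 and 0.031 for Ccnl1 and 0.072 and 0.099 for Ier3, with 0.029 after column totals. TMM gave 0.003 for F2r, 0.00 for Tnip1 and 0.023 for Zfp36. For age, the values were -0.108 and -0.13 for Gem, -0.038 and -0.057 for Icam1, -0.259 and -0.279 for Iigp1 with -0.13 after column totals, -0.005 and -0.025 for Myd88, -0.05 and -0.07 for Oas1a, -0.063 and -0.083 for Tnip3, and -0.004 after TMM for Gbp2. Of 880 values under the alternatives for 61 single genes, with Plaur and Rrad in both contrasts, 674 kept their direction and side of the limits, or moved by less than 1 SD where no test was made, 146 fell short of the limits, 12 passed them and 24 turned sign. The other 24 were values of the 8 genes that moved by more. Among other marker and early response genes, Dusp1 (0.006) and Ier2 (0.013) turned positive in sgClu against sgCtrl after TMM scaling. For age, Csf1r, Ctsg, Epor, Lyz2, Mcpt8, Ms4a3 and Pf4 turned negative after median-of-ratios scaling, at -0.293, -0.161, -0.101, -0.163, -0.278, -0.179 and -0.143. They were negative after TMM scaling too, and after column totals all but Epor (0.026) and Pf4 (0.01). Causes were not tested. Unknown depth limits the low values most, Ly6k and Vegfa in sgClu oHSCs among the 8 genes.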
